A study of Mus musculus with 2 samples.

Results

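The transcripts of 10 genes that the transcription factor NRF2 is known to switch on, Srxn1, Txnrd1, Nqo1, Gclm, Gclc, Slc7a11, Hmox1, Akr1b8, Prdx1 and Osgin1, were followed through the cell types of postischemic mouse kidney. They were taken by symbol and with no cutoff on a measured value, but the list was chosen with earlier results of these data known. All 10 were among the 32285 genes counted in each library. Single-cell RNA sequencing with the 10x Genomics 5′ chemistry was done on 1 control kidney sample and 1 JPI-289 treated kidney sample, both from 9-week-old male C57BL/6 mice. Each mouse had both kidneys made ischemic and reperfused, and the tissue was taken 24 h later, so the control was injured as well, and uninjured kidneys were not analysed here. The control mouse received saline and the treated mouse received JPI-289, an inhibitor of poly (ADP-ribose) polymerase, at 100 mg/kg into the peritoneal cavity just before blood flow was restored. With 1 library per group there was no replicate, no test between the groups was possible, and the intervals given here describe the error of counting alone.

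NRF2, encoded by Nfe2l2, is held in the cytoplasm and marked for degradation by KEAP1 until oxidants or electrophiles modify KEAP1. The released factor then pairs with a small MAF protein at antioxidant response elements, from which BACH1 can keep it away, and raises the transcription of enzymes that make glutathione, reduce thioredoxin and peroxiredoxin, and clear quinones, aldehydes and heme. Proximal tubules (PTs) depend on mitochondrial respiration and are the nephron segment most exposed to ischemia-reperfusion injury, where NRF2 is known as a protective factor.

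Regulatory sequence near the start of some of these genes is shown, as the antioxidant response element is the feature NRF2 targets are known for. Of the genes printed, Srxn1, Prdx1 and Gclm were higher and Osgin1 lower in JPI-289 treated PTs. Slc7a11 and Akr1b8 had larger log2 ratios there (4.81 and 3.29) and are not printed. No link between the patterns and the differences is read from this choice. RefSeq gave 10 promoters of 300 bases, 250 before and 50 after the start, on GRCm38.p6 for 8 of the 10 genes, with 3 for Txnrd1 and none for Gclc and Hmox1. Short patterns were searched on both strands, TGACNNNGC and TGAGNNNGC, which are core forms of the element, and TGAGTCA, an AP-1 site that can lie inside the other patterns. At least 1 of them was found in 6 of the 10 promoters, those of Srxn1, Gclm, Slc7a11, Prdx1 and Osgin1 and 1 of the 3 of Txnrd1, and in none of the windows of Nqo1 and Akr1b8. Of 32851 promoters of the same length, 31.1% held any of the patterns, 12.4% TGACNNNGC, 17.6% TGAGNNNGC and 5.20% TGAGTCA. The promoters are printed 5′ to 3′ on the strand of the gene, with every matched base in capitals. They span chr2:152105274-152105573 (plus strand) for Srxn1, chr4:116685349-116685648 (plus strand) for Prdx1, chr3:122245307-122245606 (plus strand) for Gclm and chr8:119436897-119437196 (plus strand) for Osgin1. The RefSeq start of Osgin1 lies downstream of the start of its GENCODE gene span given with its values, so this window is inside that span.
Srxn1: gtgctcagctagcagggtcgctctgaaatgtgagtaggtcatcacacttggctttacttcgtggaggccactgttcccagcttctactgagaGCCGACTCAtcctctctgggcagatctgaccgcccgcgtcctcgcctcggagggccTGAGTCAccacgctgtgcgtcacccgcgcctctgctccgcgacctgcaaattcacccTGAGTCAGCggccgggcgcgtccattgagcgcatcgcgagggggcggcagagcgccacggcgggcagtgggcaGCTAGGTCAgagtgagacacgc
Prdx1: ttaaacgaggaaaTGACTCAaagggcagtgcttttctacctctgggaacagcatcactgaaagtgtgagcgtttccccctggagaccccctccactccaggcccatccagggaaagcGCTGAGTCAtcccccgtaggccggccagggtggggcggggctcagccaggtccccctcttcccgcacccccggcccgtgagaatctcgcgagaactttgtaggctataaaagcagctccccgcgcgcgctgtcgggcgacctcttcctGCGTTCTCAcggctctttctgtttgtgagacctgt
Gclm: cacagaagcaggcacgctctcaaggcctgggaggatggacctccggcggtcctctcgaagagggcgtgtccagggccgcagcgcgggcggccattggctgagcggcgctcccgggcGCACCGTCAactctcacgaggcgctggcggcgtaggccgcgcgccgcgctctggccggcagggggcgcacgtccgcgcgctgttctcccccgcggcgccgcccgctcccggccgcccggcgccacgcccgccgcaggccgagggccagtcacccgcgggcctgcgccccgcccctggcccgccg
Osgin1: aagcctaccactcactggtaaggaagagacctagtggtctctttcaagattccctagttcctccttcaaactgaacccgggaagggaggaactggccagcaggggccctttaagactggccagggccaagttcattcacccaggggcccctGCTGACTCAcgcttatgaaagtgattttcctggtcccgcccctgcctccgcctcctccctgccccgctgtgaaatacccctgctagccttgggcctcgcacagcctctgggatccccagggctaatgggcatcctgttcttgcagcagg
The Srxn1 window held 5 matches, of which TGAGTCAGC began 45 bases before the start and combined an AP-1 site with TGAGNNNGC. Prdx1 held 4 matches, among them GCTGAGTCA, where a TGACNNNGC on the opposite strand overlaps an AP-1 site. The Gclm window held 1 match, and that of Osgin1 held 2 overlapping ones in GCTGACTCA. Matches are a description of the letters, and binding was not measured.

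The libraries held 38328760 (control) and 35548396 (JPI-289) unique molecular identifiers (UMIs), each standing for 1 captured RNA molecule. After empty droplets and cells with over 50% mitochondrial UMIs were left out, 3752 control and 5041 JPI-289 cells remained, with a median of 2053.5 and 1866 UMIs. The libraries shared 23 cell barcodes, where 25.7 would be shared if the barcodes were independent. Cells were clustered without the 10 genes and without 62 other genes of the NRF2 pathway, and clusters were named from marker genes. This gave PT-like cells (1789 control and 1648 JPI-289), loop of Henle and distal tubule (LOH/DT)-like cells (501 and 661), collecting duct (CD)-like cells (127 and 441), endothelial cell (EC)-like cells (500 and 569), stroma-like cells (176 and 101), macrophages (201 and 302), neutrophils (196 and 652) and red blood cells (77 and 123).

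PT-like cells showed the NRF2 targets at a higher level in the JPI-289 treated kidney for 8 of the 10 genes. All 10 genes had the 20 UMIs asked of a gene for comparison, and 7 of them were at least 2-fold higher with JPI-289, against 9.17% of the 11306 genes measured in these cells. Osgin1 was the 1 gene at least 2-fold lower, against 23.6% of all genes. The log2 ratios of JPI-289 over control had a median of 1.20 over the 10 genes and -0.19 over all genes measured, so that relative to all genes the targets stood 1.39 higher.

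**Figure D1:**
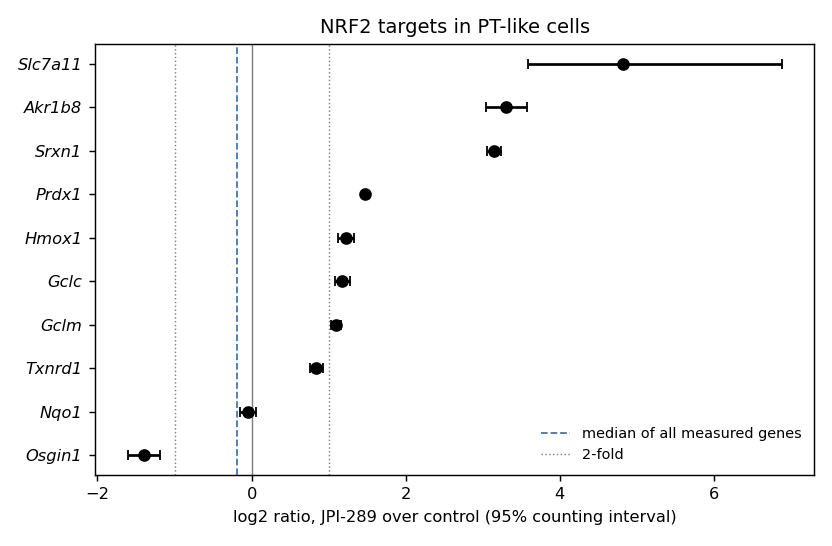
Log2 ratio of JPI-289 over control for each NRF2 target in PT-like cells, from UMIs summed per library, with 95% counting intervals. Slc7a11, Akr1b8 and Srxn1 lie between 3.14 and 4.81, Nqo1 at -0.05, and Osgin1 at -1.39, while the dashed line marks the median of all measured genes at -0.19.

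The PT-like cells of the libraries lay in different clusters. The control cells were found in clusters 0 (857 cells), 6 (512), 14 (228) and 18 (162), and the JPI-289 cells in clusters 2 (729), 4 (582) and 11 (329). Cluster 2 was led by Srxn1, Plin2 and Gsta1 and had almost the same score for PT markers (1.09) as for injured PT markers (0.98), and cluster 4 was led by the fibrinogen genes Fgb, Fgg and Fga. Such clusters may reflect the libraries rather than subtypes of PTs, and the class was compared as a whole. The summed level of 15 PT markers was 18012 CPM (UMIs of the genes per 1000000 UMIs of the class) in control and 13399 in JPI-289 cells, with 3 of 15 higher. That of 7 markers of injured PTs, such as Havcr1 and Krt20, was 8515 and 12789, with 5 of 7 higher. When clusters 2 and 4 were left out for their injured PT scores, 337 JPI-289 cells were left. The median log2 ratio of the targets was then 1.71 and 7 of 10 were at least 2-fold higher, but the share of all genes past 2-fold is not given for those cells. Nearly all of those cells were of cluster 11, which had Krt20 and Havcr1 among its leading genes and an injured PT score of 0.80, against -0.47 to 0.17 in the 4 control clusters, so injured cells were not removed from this comparison. In all PT-like cells the 10 macrophage markers summed to 17.1 and 15.4 CPM, with 4 and 6 of the 10 at 0 and 1 of 10 higher. The 8 neutrophil markers summed to 263 and 107, but 6 of the 8 were higher with JPI-289. The part of leukocyte RNA in the values was not tested.

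Transcripts for cystine import and glutathione synthesis were higher in JPI-289 treated PT-like cells for all 3 targets of this kind. Slc7a11 (ENSMUSG00000027737, chr3:49892526-50443614, minus strand), the light chain of the cystine-glutamate exchanger, had 4 UMIs in control and 114 in JPI-289 cells, or 0.49 and 15.5 CPM. It was nearly absent from the control cells and scarce in the treated ones, and its log2 ratio was 4.81 (3.58 to 6.88). When 1340 control and 1142 treated cells were thinned to a depth of 1000 UMIs, 0 of the control cells held a UMI of Slc7a11, which allows a share of cells with a UMI of up to 0.224% by 3 counts of the total and 0.275% by the exact interval, against 0.963% (exact binomial interval 0.482 to 1.72) of JPI-289 cells.

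Glutamate-cysteine ligase, the rate-limiting enzyme of glutathione synthesis, consists of a catalytic subunit encoded by Gclc (ENSMUSG00000032350, chr9:77754535-77794485, plus strand) and a modifier subunit encoded by Gclm (ENSMUSG00000028124, chr3:122245557-122270732, plus strand). Gclc was at 161 CPM in control and 364 in JPI-289 PT-like cells, from 1304 and 2672 UMIs, with a log2 ratio of 1.18 (1.08 to 1.28). For Gclm the levels were 424 and 905 CPM from 3438 and 6640 UMIs, with a log2 ratio of 1.09 (1.03 to 1.15). The subunits thus stood about 2-fold higher together, by 2.26-fold and 2.13-fold. Gclm carries a stretch of 177 bases identical to Ppia, and Slc7a11 one of 373 bases with 95.4% identity to AC157548.1, so reads from those stretches are uncertain.

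The thiol repair enzymes were higher as well, with the largest difference at Srxn1 (ENSMUSG00000032802, chr2:152105516-152111376, plus strand), which encodes sulfiredoxin, the enzyme that brings overoxidized peroxiredoxin back into use. Srxn1 had 1090 UMIs in control and 8713 in JPI-289 PT-like cells, or 134 and 1187 CPM. The log2 ratio was 3.14 (3.05 to 3.24), an 8.83-fold difference. After thinning to 1000 UMIs a UMI of Srxn1 was found in 11.7% (10.0 to 13.6) of the control cells. The treated cells had it in 62.3% (59.5 to 65.2), and the shares before thinning were 29.7% and 75.5%. In red blood cells, taken as a class that should lack the transcript, the thinned shares were 1.79% (0.045 to 9.55) and 8.60% (3.79 to 16.2), so the shares in PT-like cells stood above those. The median depth was 2260 and 1850 UMIs in PT-like cells and 1513 and 1531 in red blood cells.

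Prdx1 (ENSMUSG00000028691, chr4:116685544-116700822, plus strand), a peroxiredoxin that reduces hydrogen peroxide and is the substrate of sulfiredoxin, had 24827 UMIs in control and 62085 in JPI-289 PT-like cells. Its level was 3060.3 and 8459.9 CPM, with a log2 ratio of 1.47 (1.45 to 1.49). A UMI of Prdx1 was found in 79.6% and 94.6% of thinned PT-like cells, against 28.6% and 39.8% of thinned red blood cells.
Txnrd1 (ENSMUSG00000020250, chr10:82833951-82897712, plus strand), the cytosolic thioredoxin reductase, was at 241 and 431 CPM from 1952 and 3165 UMIs. Its log2 ratio of 0.84 (0.76 to 0.92) was a 1.79-fold difference and did not reach 2-fold. Txnrd1 overlaps Eid3 on the same strand, and reads there could belong to either gene.

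The enzymes that clear carbonyls, quinones and heme did not move together. Akr1b8 (ENSMUSG00000029762, chr6:34354119-34368463, plus strand), an aldo-keto reductase, had 135 UMIs in control and 1202 in JPI-289 PT-like cells, or 16.6 and 164 CPM, and its log2 ratio was 3.29 (3.04 to 3.57). It shares 95.6% of 250 bases with Akr1b10, which went the other way, from 73 to 38 UMIs, a log2 ratio of -0.79 (-1.40 to -0.21). Hmox1 (ENSMUSG00000005413, chr8:75093621-75100589, plus strand), the inducible heme oxygenase, was at 138 and 323 CPM from 1123 and 2370 UMIs, with a log2 ratio of 1.22 (1.12 to 1.33).

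Nqo1 (ENSMUSG00000003849, chr8:107388225-107403206, minus strand), the quinone reductase often used as a readout of NRF2, had 1662 UMIs in control and 1455 in JPI-289 PT-like cells, or 205 and 198 CPM. The log2 ratio of -0.05 (-0.15 to 0.06) left no difference detectable at this depth. Osgin1 (ENSMUSG00000074063, chr8:119434124-119446256, plus strand), an oxidative stress-induced growth inhibitor, had 723 and 249 UMIs, or 89.1 and 33.9 CPM. It was lower in the JPI-289 library, with a log2 ratio of -1.39 (-1.61 to -1.18).

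The levels were also read in the clusters of PT-like cells, each of which held almost only cells of 1 library. Srxn1 was at 38.0 to 187 CPM in the 4 control clusters and at 810 to 1540 in the 3 JPI-289 clusters. Akr1b8 was at 3.93 to 25.0 and 112 to 254, and Slc7a11 at 0 to 1.25 and 9.25 to 22.5. Osgin1 had the opposite order, with 49.9 to 191 in the control clusters and 26.0 to 38.9 in the JPI-289 clusters. None of these 4 genes overlapped between the libraries, but the share of all genes that did not overlap was not counted. As the clusters themselves split by library, the separation is not read as a result about the targets.

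The other 6 genes overlapped, and among them Prdx1 and Gclc varied widely among the control clusters. Prdx1 was at 445 CPM in control cluster 14, which was led by Slc5a12 and nuclear RNAs such as Gm26917, and at 5592.8 in control cluster 18, above the 4908.7 of JPI-289 cluster 4. Gclc in control cluster 14, at 534 CPM, exceeded all 3 JPI-289 clusters. Within the JPI-289 library cluster 4, with 15.9% mitochondrial UMIs against 2.82% in cluster 2 and 6.86% in cluster 11, was the lowest for 7 of the 10 genes, among them Gclm (410 against 1061 and 1319) and Hmox1 (155 against 299 and 513).

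**Figure D2:**
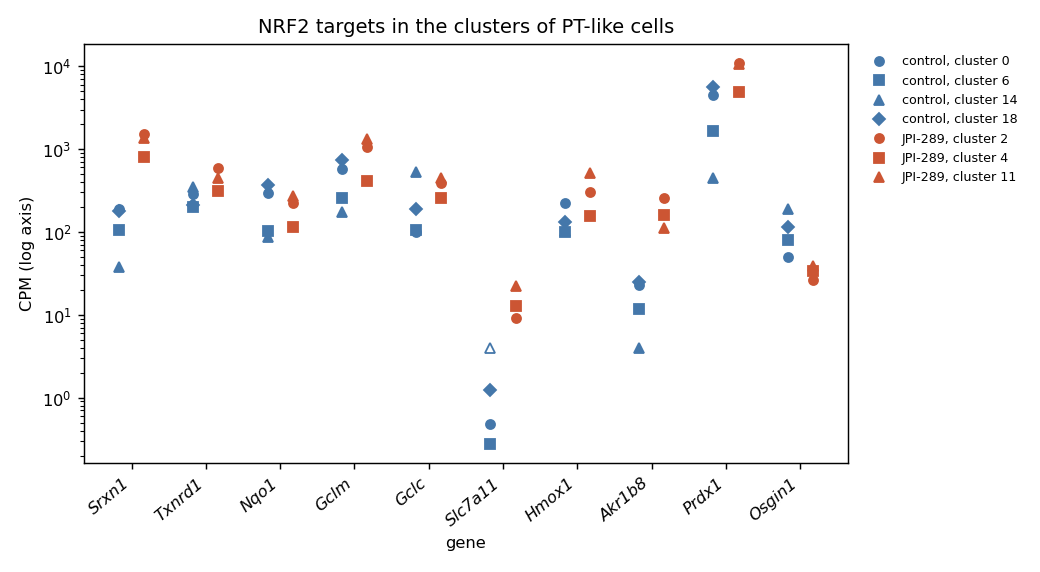
CPM (log axis) of each NRF2 target in the clusters that held PT-like cells, blue for the 4 control and orange for the 3 JPI-289 clusters, with an open symbol at the limit that a count of 0 allows. The colors separate for Srxn1, Slc7a11, Akr1b8 and Osgin1, and for the other 6 genes they overlap. The share of all genes that separate in this way was not counted.

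PT-like cells with a UMI of Havcr1, the gene of kidney injury molecule 1, were 294 of 1789 control cells and 703 of 1648 treated cells. Srxn1 was at 145 CPM (132 to 160) in control cells with Havcr1 and 128 (119 to 138) in those without. In the JPI-289 library the corresponding levels were 1247 (1216 to 1278) and 1062 (1020.3 to 1104). Srxn1 was thus higher in the JPI-289 library both with and without a Havcr1 UMI. A shallow cell can miss Havcr1, so the cells without it were not shown to be uninjured, and the part of injury in the difference was not tested.

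Akr1b8 was at 163 and 166 CPM in JPI-289 cells with and without Havcr1, so the intervals of 152 to 174 and 150.3 to 184 overlapped. Prdx1 and Gclm were higher in the cells with Havcr1 in both libraries. Prdx1 was at 3935.9 against 2580.8 CPM in control and 9433.6 against 6400.6 in JPI-289 cells, and Gclm at 556 against 351 and 1023 against 655. Cells with a Havcr1 UMI were deeper, with a median of 5949 against 1850 UMIs with saline and 4129 against 1239 with JPI-289, and the part of depth and of cluster in these differences was not tested.

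The other genes of the NRF2 pathway were less uniform than the 10 targets in PT-like cells. Of 62 genes on the pathway lists, 58 had enough UMIs, and their median log2 ratio was 0.11. At least 2-fold higher were 14, against 9.17% of all genes in these cells, and at least 2-fold lower 7, against 23.6%. Of 10 regulators, 4 were at least 2-fold higher, again against 9.17% of all genes, with a median log2 ratio of 0.77. Sqstm1, an autophagy receptor that binds KEAP1, was at 499 and 1700.2 CPM (log2 ratio 1.77, 1.72 to 1.82), and Nfe2l2 itself at 97.1 and 266 (1.45, 1.34 to 1.58). Maff, a small MAF partner, had a log2 ratio of 1.27 (0.87 to 1.68). The intervals of Keap1 (0.16, -0.10 to 0.42) and Bach1 (0.23, -0.05 to 0.51) included 0.

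Genes that supply or use the same cofactors were split. Pgd, which makes NADPH in the pentose phosphate pathway, was 3.28-fold higher, from 146 to 478 CPM, whereas Idh1, another source of NADPH, was lower by a log2 ratio of -1.21 (-1.28 to -1.15). Gsr, which reduces glutathione, Glrx, a glutaredoxin, and Slc3a2, the heavy chain that pairs with SLC7A11, had log2 ratios of 1.00, 1.22 and 1.10. Txn1, the cytosolic thioredoxin, had one of 1.17 (1.13 to 1.20), and Blvrb, a biliverdin reductase, one of 1.14 (1.06 to 1.23).

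The 7 genes at least 2-fold lower were a smaller share of the lists than the 23.6% of all genes. Ephx1, the microsomal epoxide hydrolase, had 221 UMIs in control and 15 in JPI-289 PT-like cells, a log2 ratio of -3.69 (-4.60 to -2.98). Slc40a1, the iron exporter ferroportin, Abcc2, an apical export pump, and Sod3, the extracellular superoxide dismutase, had log2 ratios of -2.55, -2.37 and -2.04. Akr1b3, the aldose reductase, and Ugdh, which makes the sugar donor for glucuronidation, were higher, by 3.27-fold and 2.83-fold. The quinone and carbonyl list as a whole had 3 genes at least 2-fold higher (9.17% of all genes) and 3 lower (23.6%) of 10 measured, with a median of -0.54.

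Across the other classes fewer NRF2 targets were past 2-fold than in PT-like cells, and the genes were not the same ones in each class. The counting interval lay above 0 for 7 and below 0 for 2 of 9 targets in CD-like cells. In PT-like cells it did so for 8 and 1 of 10, and that share of all genes was not counted. In LOH/DT-like cells 1 of 9 measured targets was at least 2-fold higher, against 6.61% of all genes, and 1 lower, against 11.9%. In CD-like cells 3 of 9 were higher (7.48% of all genes) and 0 lower (14.2%). In EC-like cells 1 of 10 was higher (5.18%) and 1 lower (18.6%), and in stroma-like cells 1 of 8 was higher (12%) and 0 lower (13.7%).

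In leukocytes the targets past 2-fold were about as frequent as such genes among all genes. Macrophages had 0 of 10 targets at least 2-fold higher (8.88% of all genes) and 2 lower (15.4%), and neutrophils 1 of 10 higher (11.5%) and 1 lower (10.5%). Red blood cells had 3 of 5 measured targets higher (16.7%) and 0 lower (6.98%). Among the higher ones, Srxn1 had 2 and 31 UMIs and Gclc 3 and 21. Both reached the minimum of UMIs summed over the libraries almost only through the JPI-289 library. That library also had more UMIs of this class, 226607 against 142434, so the minimum favoured genes higher with JPI-289. All genes passed the same minimum, but the count and median of red blood cells are not read as a result about the targets. The median log2 ratios of the targets were 0.30 in LOH/DT-like, 0.55 in CD-like, 0.12 in EC-like and 0.16 in stroma-like cells, -0.46 in macrophages, 0.0038 in neutrophils and 1.17 in red blood cells. Those of all genes lay between -0.18 and 0.22 in these classes. The difference between PT-like cells and the other classes was not tested.

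**Figure D3:**
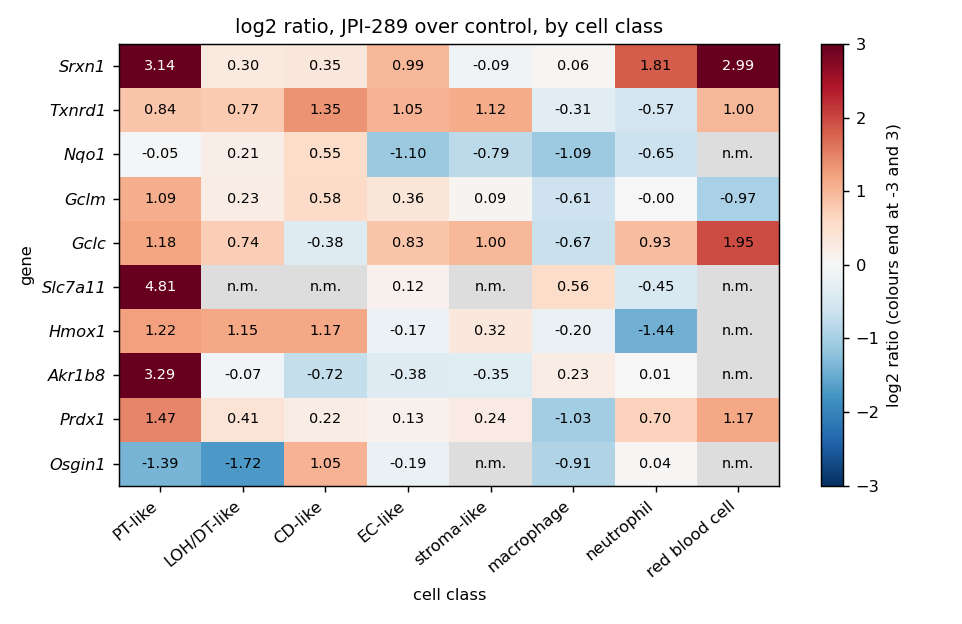
Log2 ratio of JPI-289 over control of each NRF2 target (rows) in each cell class (columns), red for higher and blue for lower with JPI-289, and n.m. where the gene had under 20 UMIs over both libraries. Values from 2.99 upward occur in PT-like cells for Srxn1, Slc7a11 and Akr1b8 and in red blood cells for Srxn1, where the control had 2 UMIs.

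LOH/DT-like cells had the highest level of Gclc among the classes, at 771 CPM in control cells and 1286 in treated ones, with a log2 ratio of 0.74 (0.64 to 0.84). Their Hmox1 level was low, with 33 and 99 UMIs (22.9 and 51.3 CPM), and was higher with JPI-289 by a log2 ratio of 1.15 (0.58 to 1.78). Osgin1 was lower in these cells too, with 50 and 20 UMIs and a log2 ratio of -1.72 (-2.57 to -0.97). Akr1b8 was at 101 and 96.3 CPM, and its interval of -0.39 to 0.25 included 0, in contrast to PT-like cells.

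The LOH/DT-like cells came from 2 clusters that both libraries filled, and the targets differed between them. In cluster 7, led by the thiazide-sensitive cotransporter Slc12a3 and Calb1 (220 control and 253 JPI-289 cells), 5 of 9 targets were at least 2-fold higher, against 8.14% of all genes, and the median log2 ratio was 1.27. In cluster 3, led by Umod and the loop cotransporter Slc12a1 (281 and 408 cells), 0 of 9 were, against 8.48%, and the median was -0.02. In each cluster 1 of 9 targets, Osgin1, was at least 2-fold lower, against 9.59% of all genes in cluster 7 and 10.7% in cluster 3, from 19 and 1 UMIs in the former and 31 and 19 in the latter. Gclm was at 154 and 406 CPM in cluster 7, a log2 ratio of 1.39 (1.05 to 1.76), and at 312 and 226 in cluster 3, one of -0.46 (-0.71 to -0.22). Txnrd1 was at 203 and 548 in cluster 7, a log2 ratio of 1.43 (1.13 to 1.74), and at 196 and 221 in cluster 3, one of 0.17 (-0.11 to 0.46). The median depth was 1083 and 1225 UMIs in cluster 7 and 1396 and 1658 in cluster 3, and the difference between the clusters was not tested.

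**Figure D4:**
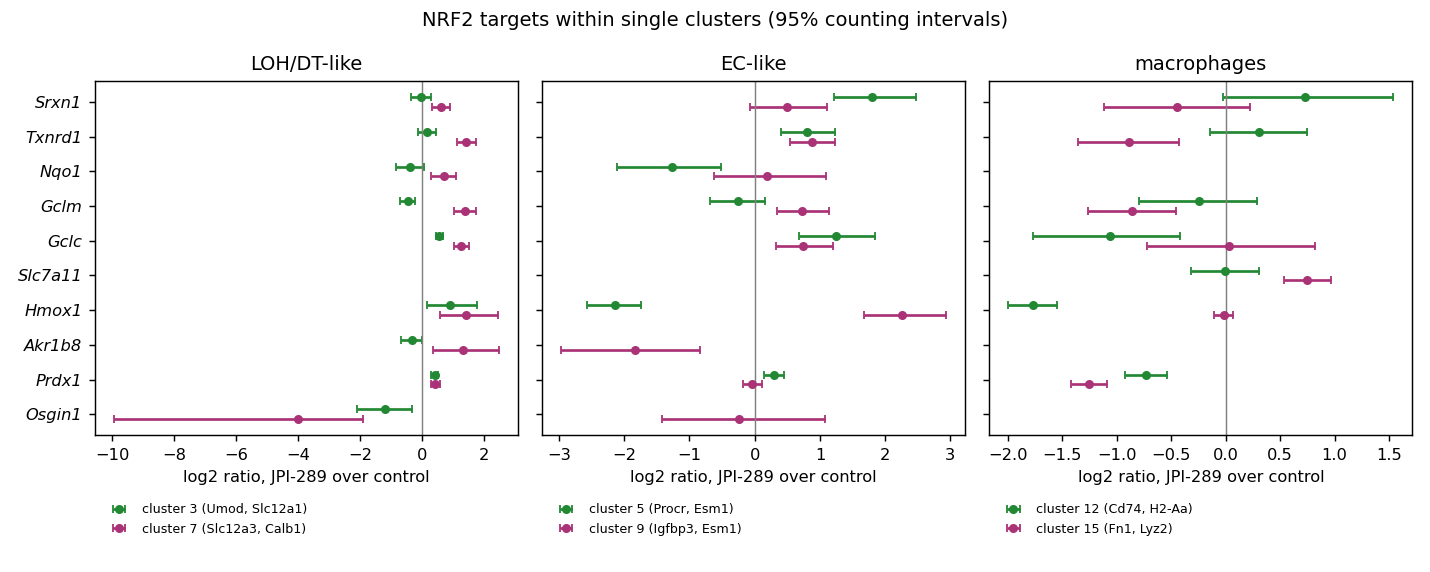
Log2 ratio of JPI-289 over control with 95% counting intervals for the NRF2 targets within single clusters of LOH/DT-like cells, EC-like cells and macrophages, leaving out genes with under 20 UMIs in the cluster. In the left panel the interval of cluster 7 lies above that of cluster 3 for Srxn1, Txnrd1, Nqo1, Gclm, Gclc and Akr1b8, and in the middle panel Hmox1 lies at -2.14 in cluster 5 and 2.25 in cluster 9.

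CD-like cells held the highest level of Txnrd1, at 288 CPM in control cells and 735 in treated ones, with a log2 ratio of 1.35 (1.18 to 1.53). Hmox1 was at 31.0 and 70.2 CPM (log2 ratio 1.17, 0.63 to 1.76) and Osgin1 at 15.9 and 33.5 (1.05, 0.29 to 1.92), from 19 and 51 UMIs. Osgin1 was thus higher with JPI-289 in CD-like cells and lower in PT-like and LOH/DT-like cells. Akr1b8 was lower, at 123 and 74.8 CPM, with a log2 ratio of -0.72 (-1.08 to -0.36). CD-like cells came from cluster 8, led by the water channel Aqp2 (82 control and 381 JPI-289 cells), and cluster 20, led by the proton pump subunit Atp6v1g3 (45 and 60), in different proportions. Within cluster 8, 2 of 9 targets were at least 2-fold higher (8.44% of all genes) and 1 lower (14%), since the log2 ratio of Hmox1 was 0.90 (0.31 to 1.56) and that of Akr1b8 -1.11 (-1.51 to -0.72). The CD-like cells differed in depth, with a median of 6607 UMIs in control and 1554 in treated cells, whose part in these values was not tested. Their 10 CD markers summed to 12064 CPM in control and 7576 in treated cells, with 0 of 10 higher. The 8 neutrophil markers summed to 16.7 and 478, with 7 of 8 higher, and the part of these changes was not tested either. Free RNA, the RNA of burst cells that every droplet takes up, was estimated at 3.70% and 15.1% of their UMIs. With it subtracted, the log2 ratios were 1.45 for Txnrd1, 0.92 for Hmox1, 1.21 for Osgin1 and -0.80 for Akr1b8, and those of Srxn1 and Prdx1 went from 0.35 and 0.22 to -0.55 and -0.67.

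EC-like cells had Txnrd1 at 130 and 269 CPM, a log2 ratio of 1.05 (0.83 to 1.28), and Srxn1 at 56.9 and 114, one of 0.99 (0.65 to 1.35). Nqo1 was lower, at 76.7 and 35.5 CPM from 151 and 61 UMIs, with a log2 ratio of -1.10 (-1.56 to -0.67). In cluster 5 its log2 ratio was -1.27 (-2.11 to -0.51) from 50 and 20 UMIs and in cluster 9 0.18 (-0.63 to 1.09) from 18 and 41, and the rest of its control UMIs came from cluster 17, where the JPI-289 library had 1 cell. Hmox1 was at 196 and 174, and its interval of -0.39 to 0.05 included 0. Its UMIs lay in 81 of 500 control and 155 of 569 JPI-289 cells. With equal weight of each cell its log2 ratio was 0.16 in place of -0.17. The clusters behind these values went in opposite directions. In cluster 5, led by Procr and Esm1, Hmox1 had 272 control and 60 JPI-289 UMIs (708 and 160 CPM), a log2 ratio of -2.14 (-2.57 to -1.74). In cluster 9, led by Igfbp3 and Esm1, it had 25 and 239 UMIs (36.8 and 178 CPM), one of 2.25 (1.68 to 2.93).

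The third EC-like cluster, 17, held 182 control cells and 1 JPI-289 cell, so a share of the control EC-like cells had no counterpart. Cluster 5 was shallow, with a median of 949.5 and 794 UMIs, and cluster 9 deeper, with 6303.5 and 3600. The marker scores of cluster 5 were 4.885 for EC, 2.29 for red blood cell, 1.445 for injured PT and 1.25 for PT, so its identity was mixed. Red blood cell markers summed to 108 CPM in control and 1351 in JPI-289 EC-like cells, with 5 of 6 higher and 1 of 6 at 0 in each library. Their part in the values was not tested. Free RNA was estimated at 16.1% and 20.4% of UMIs in these cells, and with it subtracted the log2 ratio was 1.18 for Txnrd1, -3.42 for Nqo1 and -6.91 for Srxn1. Txnrd1 thus stayed higher. For Srxn1 the estimate exceeded the 195 UMIs of treated EC-like cells, so none were left and its value rests on the 0.5 added to each sum. Srxn1 was at 75.4 and 267 CPM in cluster 5, a log2 ratio of 1.80 (1.21 to 2.47). In cluster 9 it was at 50.1 and 70.9, one of 0.49 (-0.08 to 1.11). The part of free RNA in the higher Srxn1 was not tested.

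Stroma-like cells had Txnrd1 at 187 and 404 CPM (log2 ratio 1.12, 0.79 to 1.44) and Gclc at 74.0 and 148 (interval 0.46 to 1.53). Srxn1, at 139 and 130 CPM, had an interval of -0.61 to 0.38. The 10 stroma markers summed to 24202 CPM in control and 15735 in treated stroma-like cells, with 1 of 10 higher. The 8 neutrophil markers summed to 241 and 705, with 5 of 8 higher, and the part of these changes in the values was not tested. Txnrd1 was higher with JPI-289 in PT-like, LOH/DT-like, CD-like, EC-like and stroma-like cells, by log2 ratios from 0.77 to 1.35. Its interval included 0 in macrophages (-0.62 to 0.01) and lay below 0 in neutrophils (-0.97 to -0.14).

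Macrophages held the highest level of Hmox1, which they are known to use when they take up red blood cells. It was at 2208 CPM (2124 to 2293) in control and 1918 (1846 to 1993) in treated macrophages, with a log2 ratio of -0.20 (-0.28 to -0.12). Next in order were neutrophils in the control, at 225 with an interval that overlapped that of EC-like cells at 196, and PT-like cells in the JPI-289 library, at 323. Prdx1 was at 1219 and 595 CPM, a log2 ratio of -1.03 (-1.16 to -0.91), and Nqo1 had 19 and 10 UMIs, one of -1.09 (-2.39 to 0.05). Macrophage Prdx1 therefore differed in the direction opposite to that in PT-like cells.

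The macrophages came from 2 clusters. In cluster 12, led by Cd74 and other MHC class II genes, Hmox1 had 750 control and 214 JPI-289 UMIs, or 1368 and 401 CPM, and the log2 ratio was -1.77. In cluster 15, led by Fn1, Lyz2 and Arg1, it was at 2916 and 2878 CPM, with a log2 ratio of -0.02 (-0.11 to 0.07). Prdx1 was lower in both, by log2 ratios of -0.73 (-0.93 to -0.54) and -1.26 (-1.42 to -1.09). The 10 macrophage markers summed to 15859 CPM in control and 5402 in JPI-289 macrophages, with 0 of 10 higher, and 6 red blood cell markers to 60.1 and 1435, with 5 of 6 higher, and the part of this change in the values was not tested.

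Slc7a11 had its highest levels in leukocytes. Neutrophils were at 805 CPM (723 to 894) and 590.2 (553 to 629) with saline and JPI-289, and macrophages at 368 (335 to 404) and 542 (504 to 583). The intervals of these classes overlapped in the JPI-289 library and not in the control. The remaining classes had at most 15.5 CPM, the value of JPI-289 PT-like cells, so the difference of Slc7a11 in PT-like cells was between very low levels. In neutrophils the log2 ratio was -0.45 (-0.63 to -0.27) and in macrophages 0.56 (0.39 to 0.73).

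Osgin1 was at 115 and 119 CPM in neutrophils, with an interval of the log2 ratio of -0.40 to 0.53. In the JPI-289 library this was above every other class, and in the control its interval (85.3 to 152) overlapped that of PT-like cells (82.7 to 95.9). Hmox1 was lower in JPI-289 neutrophils, at 225 and 83.2 CPM, a log2 ratio of -1.44 (-1.82 to -1.05). The 10 macrophage markers summed to 956 CPM in control and 273 in JPI-289 neutrophils, with 2 of 10 higher, and their part in this value was not tested. Srxn1 was higher in JPI-289 neutrophils, with 14 and 187 UMIs (32.2 and 116 CPM) and a log2 ratio of 1.81 (1.07 to 2.75). In red blood cells, which do not transcribe genes once mature, Srxn1 had 2 and 31 UMIs (log2 ratio 2.99, 1.31 to 6.39) and Prdx1 50 and 180 (1.17, 0.72 to 1.66).

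The free RNA of the libraries, read from barcodes with under 100 UMIs, held more of the same transcripts. Srxn1 was at 125 CPM (93.9 to 162) of control free RNA and 675 (591 to 768) of that of the treated kidney, and Prdx1 at 1821 and 3761. The Srxn1 level of treated neutrophils and red blood cells was below that of the free RNA, which was estimated to make up 5.30% and 4.05% of their UMIs. With free RNA subtracted, the log2 ratios of Srxn1 and Prdx1 in PT-like cells were 3.16 and 1.46, and those of Srxn1 in neutrophils and red blood cells 1.72 and 3.63. In macrophages the subtraction took Prdx1 from a log2 ratio of -1.03 to -2.06 and Srxn1 from 0.06 to -7.01. For Srxn1 the estimate exceeded the 78 UMIs of treated macrophages, so none were left. The value of -7.01 rests on the 0.5 added to each sum and is not a measured ratio.

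**Figure D5:**
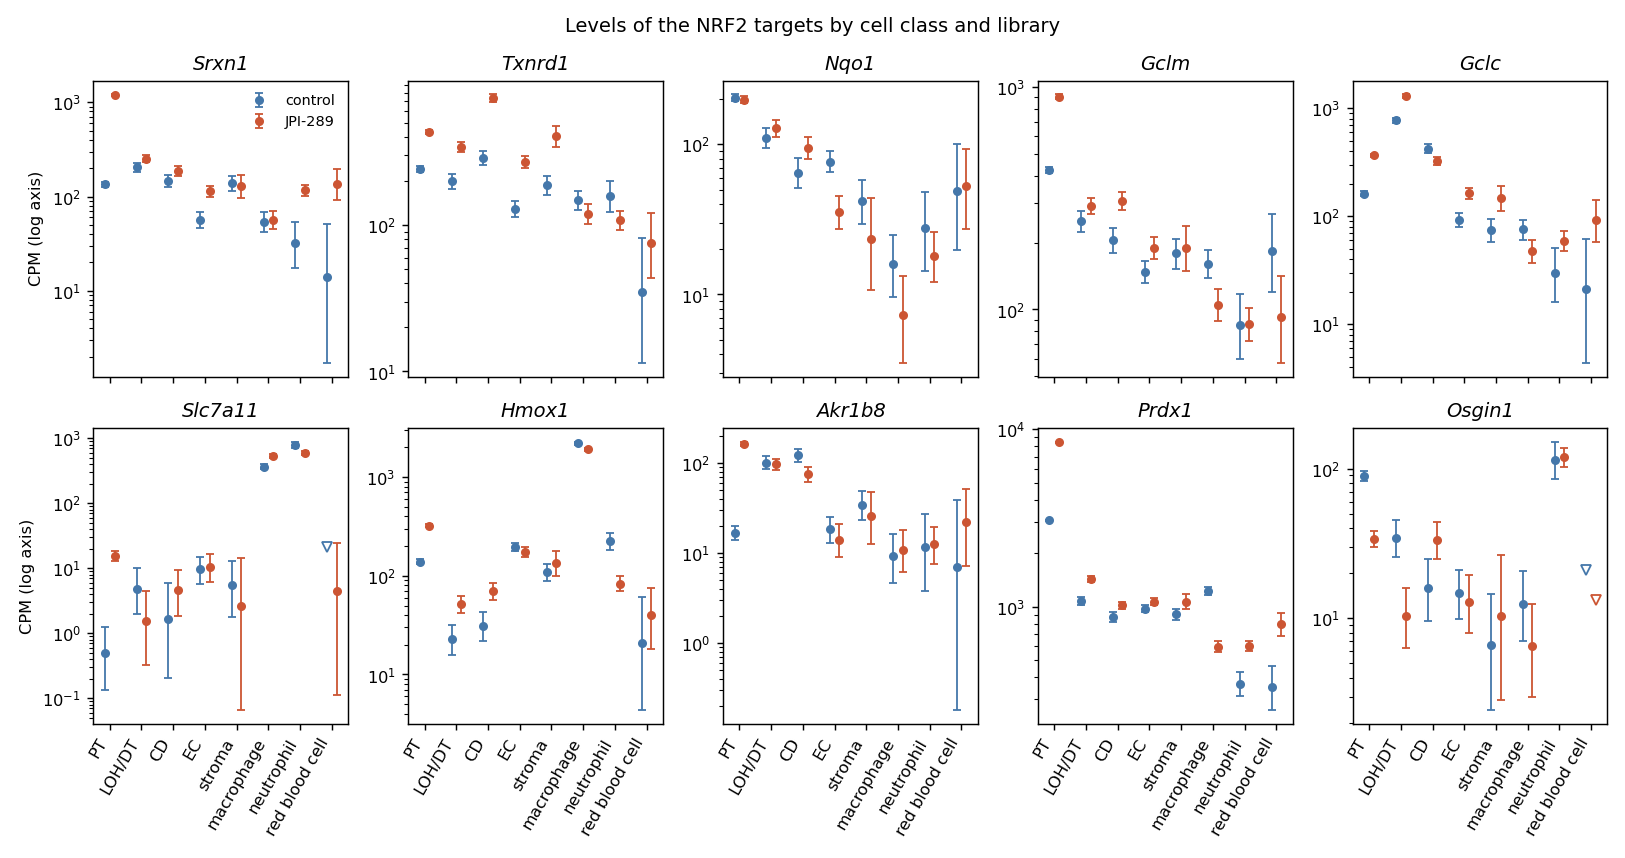
CPM (log axis) of each NRF2 target by cell class, blue for the control and orange for the JPI-289 library, with 95% counting intervals and open triangles at the limit that a count of 0 allows. PT-like cells lead the JPI-289 library for Srxn1 (1187), Gclm (905), Akr1b8 (164) and Prdx1 (8459.9), macrophages lead for Hmox1 and neutrophils for Slc7a11.

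The order of the classes changed between the libraries for Srxn1 and Akr1b8. In the control, Srxn1 was highest in LOH/DT-like cells (205, 182 to 230), and CD-like (147), stroma-like (139) and PT-like cells (134) followed with overlapping intervals. In the JPI-289 library PT-like cells were first at 1187 and LOH/DT-like cells next at 253. For Akr1b8, CD-like (123) and LOH/DT-like cells (101) shared the first place in the control with overlapping intervals ahead of stroma-like, EC-like and PT-like cells, whereas in the JPI-289 library PT-like cells were first. Nqo1, Gclm and Prdx1 were highest in PT-like cells in both libraries.

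The mean profile of the 10 targets over the 8 classes and both libraries, 16 values in all, was set against 9862 genes. The genes outside the targets with the most similar profile were Sox9 (Pearson's r 0.92), Acads (0.90), Txn1 (0.90), Bckdha (0.89) and Gga2 (0.89), where the values share 2 libraries and their depth. Each target is itself part of that mean, which raises its own correlation. Among the targets, Srxn1 (0.87) and Prdx1 (0.87) followed the mean profile most closely, and Hmox1 (0.08) and Slc7a11 (-0.19) did not follow it. Sox9, a transcription factor of regenerating tubule cells and also among the injured PT markers used here, had 382 and 850 UMIs in PT-like cells, a log2 ratio of 1.30. Acads, a mitochondrial fatty acid dehydrogenase, had 1135 UMIs in each library. Its log2 ratio there was 0.14 and that of Bckdha 0.05, so a similar profile need not mean a difference between the libraries.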

How the data were processed

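Single-cell RNA sequencing was analysed in 1 control and 1 JPI-289 library. The authors aligned the reads to mm10 with Cell Ranger 5.0.1 and deposited raw UMI counts for every gene and barcode, before cells were called and without a mitochondrial filter or removal of doublets. Their integration with public normal kidneys was not used here.

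Cells were called by total UMIs and, from 500 UMIs up, by comparison with barcodes ranked 45000 to 90000 (10000 simulations, false discovery rate 0.01), and at most 50% mitochondrial UMIs were allowed. The libraries were clustered together in scanpy 1.11.5 and leidenalg 0.10.2 (Python 3.11.15) with 2000 variable genes, 30 principal components, 20 neighbours and resolution 1. Scrublet marked 0 of 3752 and 3 of 5041 cells and so did not work here, and doublets were kept. A cluster took the name of its leading marker list where 3 or more of the markers were detected and the score reached 0.75. Between that and 2, a marker also had to be among its 10 leading genes, and for PT a marker of injured PTs counted as well. Cluster 2, with 729 JPI-289 cells, had no PT marker among its leading genes and was named PT through the injured PT marker Krt20. The NRF2 targets, the gene lists and this naming rule were chosen with earlier results of these data known.

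UMIs were summed per class and library and given as CPM, per 1000000 UMIs of the class, with exact Poisson intervals. For the log2 ratio 0.5 was added to each sum, genes needed 20 UMIs over both libraries, and the interval is the exact binomial one on the pair of counts. All intervals are at 95% and shares have Clopper-Pearson intervals. No test between the groups was made. Classes needed 50 cells in each library, which left out podocytes and lymphocytes, and 143 control and 388 JPI-289 cells stayed unnamed. The text names all 10 targets, up to 3 genes a pathway list with at least 100 UMIs past 2-fold in PT-like cells, Nfe2l2, Keap1 and Bach1, and the 5 genes of most similar profile among those with at least 200 UMIs, on log2 values after adding 10 CPM. Akr1b10, cluster names and marker genes were named after their values were seen. Positions are from GENCODE vM21 (GRCm38), and promoters from RefSeq (GRCm38.p6). The counting and calling steps were tested on simulated data. The alternatives were other steps of calling, filters, clustering, scaling, weights, added values, minimums, free RNA subtraction and choices of PT-like clusters.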

Additional observations from a re-analysis of the deposited data

Results flagged for a closer look

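Some targets were past 2-fold in opposite directions in different cell classes. These differences between classes were not tested, since each value compares 1 library with 1 library. Hmox1 was higher with JPI-289 in PT-like (log2 ratio 1.22), LOH/DT-like (1.15) and CD-like cells (1.17) and lower in neutrophils (-1.44), where the summed macrophage markers were lower too. Within EC-like cells Hmox1 was higher in cluster 9 (2.25) and lower in cluster 5 (-2.14), while the thinned share of EC-like cells with an Hmox1 UMI was higher with JPI-289. Prdx1 was higher in PT-like cells (1.47) and red blood cells (1.17) and lower in macrophages (-1.03). Osgin1 was higher in CD-like cells (1.05) and lower in PT-like (-1.39) and LOH/DT-like cells (-1.72).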

How the results depend on the processing

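No paired analysis was possible because each group had 1 library. In PT-like cells the median log2 ratio of the targets lay between 1.12 and 1.71 over 16 alternatives, 6 to 8 targets were at least 2-fold higher and 1 was lower in each. It was 1.39 after centring on all genes and 1.71 with the PT-like clusters that scored at least 0.5 higher for PT than for injured PT markers, an alternative chosen after seeing the data. Clustering with the NRF2 genes left 754 JPI-289 PT-like cells and at most 20% mitochondrial UMIs left 719. No PT-like cluster scored higher for injured PT than for PT markers, so leaving out clusters that did gave the same cells. The cause of the changes given below was not tested, and the share of all genes past 2-fold and their median are not given for the alternatives. The counts and medians below are hence not read as a result about the targets.

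Free RNA taken from barcodes of 100 to 300 UMIs, also chosen after seeing the data, was estimated at 51.0% of the UMIs of JPI-289 CD-like cells. Its subtraction turned Hmox1 in CD-like cells to -5.39, where none of the 107 UMIs of treated cells were left. That value rests on the 0.5 added to each sum and is not a measured ratio. The subtraction gave medians of -1.12 in CD-like and -1.66 in stroma-like cells, -1.65 in macrophages and 1.77 in red blood cells. The targets at least 2-fold lower then numbered 5 in CD-like, 3 in EC-like and 4 in stroma-like cells, 5 in macrophages, 2 in neutrophils and 1 in red blood cells, and those higher 3 in neutrophils and 1 in red blood cells. With free RNA from barcodes under 100 UMIs the medians were -0.21 in stroma-like cells and -1.04 in macrophages, 4 targets were lower in EC-like cells, 2 in stroma-like cells, 4 in macrophages and 1 in red blood cells, and 2 were higher in neutrophils.

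With equal weight of each cell the medians were 0.53 in LOH/DT-like cells and -0.11 in macrophages, 0 targets were lower in LOH/DT-like cells, and 3 were higher in EC-like cells, 0 in stroma-like cells and 2 in neutrophils. Centring gave 3 higher and 0 lower in EC-like cells, and 1 lower in macrophages and in red blood cells. The first step of calling alone gave a median of 0.34 in red blood cells with 1 higher and 1 lower, 0 higher in EC-like and 2 in stroma-like cells. At least 1000 UMIs per cell gave 0 higher in LOH/DT-like and EC-like cells and 2 in stroma-like cells. With the top 5% of doublet scores left out, 0 were lower in EC-like cells and macrophages, 2 higher in stroma-like cells, and 2 higher and 2 lower in neutrophils. Stroma-like cells also had 2 higher with the NRF2 genes in the clustering, at resolution 0.5 and with scaling to nuclear genes. A minimum of 100 UMIs per gene gave 0 lower in LOH/DT-like cells, 1 lower in macrophages and 1 higher in red blood cells, and one of 5 UMIs 2 lower in LOH/DT-like cells. Of 1014 values of single targets under the alternatives, 134 moved beyond their counting interval, 40 of them among the 160 values of PT-like cells, and 951 kept their sign.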

Other observations

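Podocyte-like cells numbered 36 in the control and 58 in the treated kidney, too few to be compared. Srxn1 had 3 UMIs in the former and 19 in the latter, Txnrd1 4 and 20, and Prdx1 53 and 68, from 42750 and 82201 UMIs in all. Lymphocyte-like cells numbered 6 and 98, and in the latter Srxn1 had 27 UMIs, Gclm 26 and Prdx1 165, from 228949 in all.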
